A study of Mus musculus with 9 samples.

Results

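The respiratory chain of the mitochondrial inner membrane is built from complexes I to IV, and most of its protein subunits are encoded in the nucleus. The genes described here are 67 of the 43472 rows of the count table, chosen by symbol: those starting with Nduf followed by a, b, c, s or v and a digit, those named Sdha to Sdhd, those starting with Uqcr and those starting with Cox and a digit 4 to 8, with pseudogene symbols left out. They are 37 genes of complex I, 4 of complex II, 8 of complex III and 18 of complex IV, counted by their names. Ndufa4, now placed in complex IV, is therefore counted under complex I in all counts and sums. RNA was sequenced from C57BL/6J mice in 3 groups of 3 libraries: Bone (bone tissue, osteoblasts), MatC (mature cartilage, mature chondrocytes) and ImC (immature cartilage, immature chondrocytes). The labels name no treatment, allele, age or anatomical site, and do not say whether the libraries of a group came from separate animals, and the p-values therefore reflect the spread among these samples alone.

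Complex I takes electrons from NADH and complex II takes them from succinate; both pass them through ubiquinone to complex III, and cytochrome c carries them on to complex IV, which reduces oxygen. Complexes I, III and IV pump protons, and ATP synthase uses the resulting gradient. Each of these 3 proton pumps joins nuclear subunits to core subunits encoded by mitochondrial DNA, whereas complex II is wholly nuclear. Chondrocytes lie in a matrix with few or no vessels and are known for relying largely on glycolysis, while osteoblasts are known to use both glycolysis and respiration.

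Totals ran from 7913684 to 23159547 counts a library. Mitochondrially encoded rows took 7.24% to 8.91% of the counts in Bone, 33.7% to 82.3% in MatC and 32.0% to 55.0% in ImC, so all levels below were scaled over the remaining counts, of which there were 1904092 to 11339706. Levels are counts per 1000000 of these reads (CPM) with edgeR's scaling factors. MatC replicate 3 stood apart, with the fewest non-mitochondrial counts and reads for 14940 genes, while all the rest had reads for at least 17535; 3 reads correspond to 1.54 CPM there and to at most 0.469 CPM elsewhere. Osteoblast markers summed to 145800 to 175900 CPM in Bone, 2333 to 47820 in MatC and 949.5 to 1072 in ImC. Immature chondrocyte markers summed to 5639 to 6833 CPM in Bone, 23770 to 56680 in MatC and 35530 to 50180 in ImC, and hypertrophic chondrocyte markers to 34060 to 44870 CPM in Bone, 10360 to 26280 in MatC and 293.9 to 1279 in ImC. Every osteoblast marker had reads in Bone and every immature chondrocyte marker had reads in ImC; in Bone over ImC, 14 of 14 tested osteoblast markers were higher, 14 of 15 immature chondrocyte markers were lower, and of 11 hypertrophic markers, some of which osteoblasts also express, 8 were higher and 1 lower. The osteoblast sum was 47820 CPM in MatC replicate 2 and 2333 CPM in MatC replicate 3.

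The summed level of the 67 genes was highest in Bone for every complex. All members together summed to 9734, 11219 and 10264 CPM in the Bone libraries, to 7398, 5864 and 6035 CPM in the MatC libraries and to 5452, 5815 and 5036 CPM in the ImC libraries. No Bone library overlapped a cartilage library, and every MatC library lay above every ImC library, by the narrow margin of 5864 CPM in MatC replicate 2 over 5815 CPM in ImC replicate 2. Complex IV summed to 3776 ± 58.1 CPM in Bone, 2032 ± 404 in MatC and 1668 ± 373 in ImC (SD, n = 3 each), which is 2.26 times as much in Bone as in ImC. The Bone over ImC ratio was 1.999 for complex II, 1.87 for complex III and 1.70 for complex I. In bulk tissue such differences cannot be told apart from differences in the share of cells of a type, since fewer cells of a type and less RNA per cell give the same value.

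**Figure D1:**
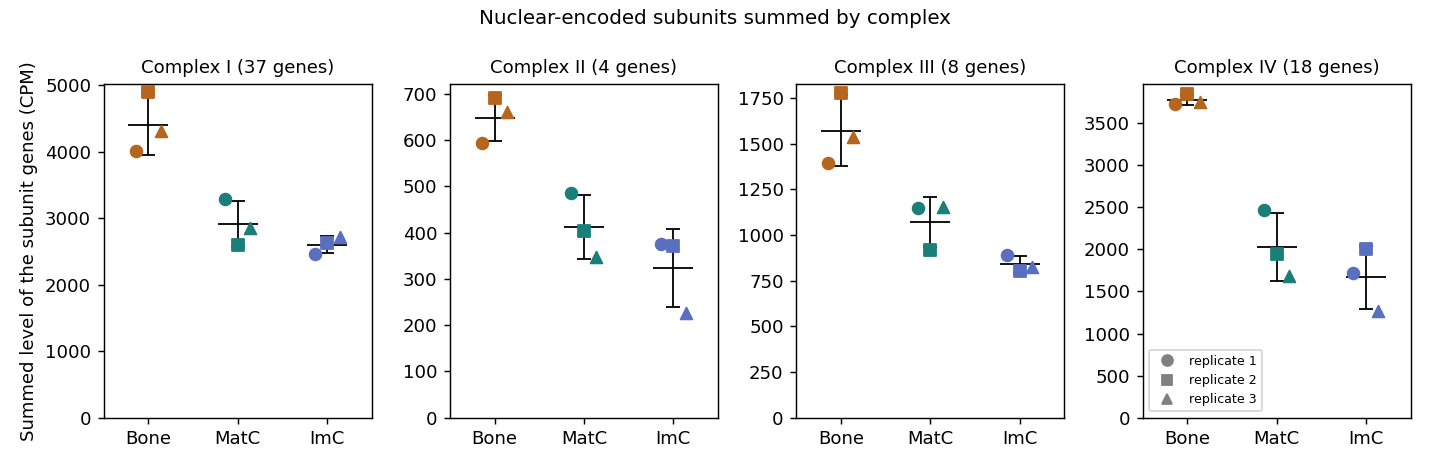
Summed level in CPM of the nuclear-encoded subunit genes of each complex, for Bone, MatC and ImC. Points are libraries with their replicate number as the marker, horizontal lines are means and bars are ± 1 SD over 3 libraries; all 3 Bone libraries lie above the cartilage libraries in each panel.

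Of the 67 genes, 63 passed the filter on low counts and were tested. The other 4 were isoforms of complex IV with few or no reads. Cox7a1, the heart and skeletal muscle form of subunit 7a, had 6, 8 and 7 reads in the Bone libraries, 1, 4 and 0 in the MatC libraries and 11, 6 and 9 in the ImC libraries. Cox8b, a muscle and brown fat form of subunit 8, had 1 read in Bone, 8 in MatC, all of them in MatC replicate 2, and 0 in ImC. Cox7b2 and Cox8c, known mainly from testis, had 7 and 1 reads over the 9 libraries.

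Genes are written as higher or lower in a group only where edgeR's quasi-likelihood test gave an adjusted p under 0.05 over 14249 genes. Between Bone and ImC, 32 of the 63 subunit genes rose in Bone (50.8%), against 14.3% of all genes tested, and 1 fell, against 17% of all genes. The rises ran from 1.70-fold to 4.27-fold, and the median change over the 63 genes was 0.99 on the log2 scale, beside -0.05 over all genes tested. All 3 Bone libraries lay above all 3 ImC libraries for 47 of the 63 genes, where 29.7% of all genes did so, and below them for 2, where 29.4% of all genes did. The number of rises depended on single libraries: 14 remained without Bone replicate 2, 15 without Bone replicate 3 and 17 without ImC replicate 1. Of all genes, 7.84%, 7.98% and 9.19% rose in these fits, in the same order. Of the 33 calls, 13 held under each of the 19 alternative analyses: Ndufa1, Ndufa3, Ndufa4, Ndufa4l2, Ndufa7, Ndufc1, Sdhc, Uqcrb, Uqcrfs1, Cox6a1, Cox6b1, Cox6c and Cox8a. Exons of Ndufa3, Ndufa4l2, Ndufa13, Ndufb5, Ndufb6, Ndufb11, Uqcrb, Uqcrc2, Cox4i1, Cox5a and Cox6c overlap a gene on the opposite strand, whose reads cannot be separated from theirs.

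**Figure D2:**
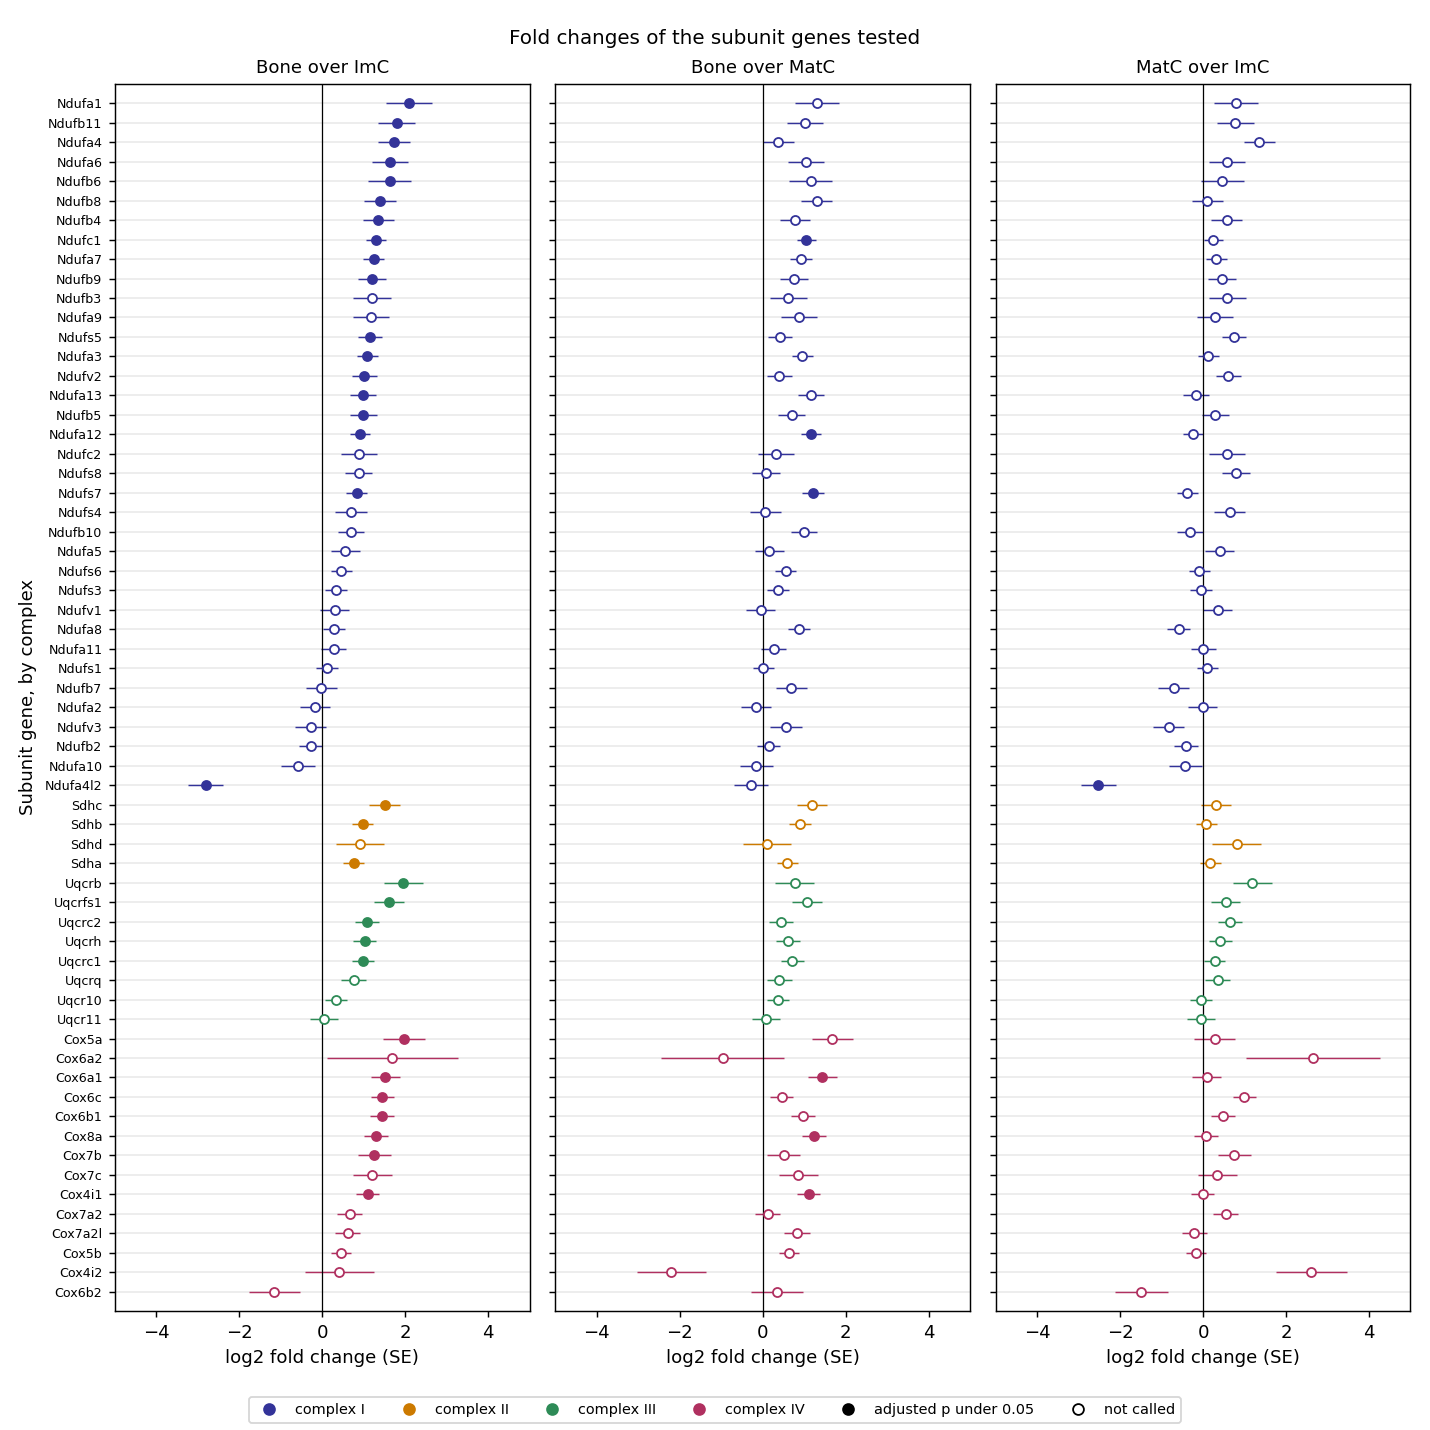
Log2 fold change of 62 of the 63 tested genes in Bone over ImC, Bone over MatC and MatC over ImC, grouped by complex and sorted by the first panel, with bars of ± 1 SE. Filled points have an adjusted p under 0.05: 33 in the first panel, 6 in the second and 1 in the third, where the lone filled point is Ndufa4l2.

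**Figure D3:**
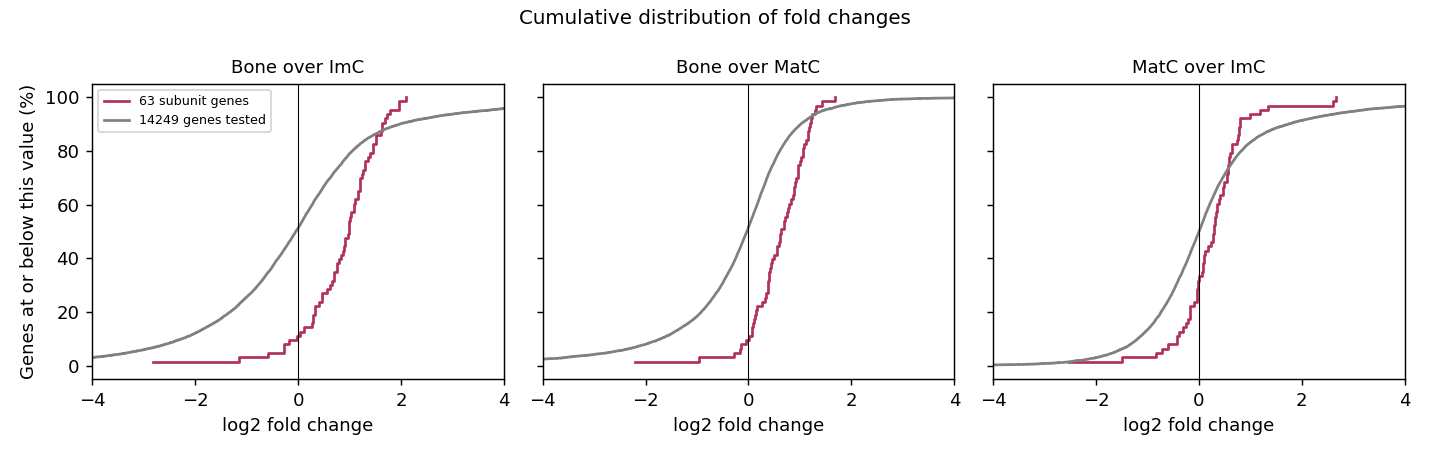
Cumulative percent of genes at or below each log2 fold change, for the 63 subunit genes and for the 14249 genes tested, in the 3 comparisons; values beyond the axis limits are not drawn. The curve of the subunit genes crosses 50% at 0.99, 0.63 and 0.29 from left to right, and that of all genes at -0.05, -0.03 and 0.0044.

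Since many of the genes rose together in Bone, their promoter windows were searched for motifs known from respiratory genes. The windows run from 250 bases before to 50 after the start of the gene, taken from RefSeq on GRCm38.p6; 53 of the 67 genes matched. Shown are genes that rose in Bone over both cartilages and held a match, Cox6a1 (chr5:115348909-115349208, minus strand), Cox8a (chr19:7217567-7217866, minus strand) and Ndufs7 (chr10:80249199-80249498, plus strand), and Sdha (chr13:74350191-74350490, minus strand) for its 3 NRF1 matches. Sequences read 5′ to 3′ on the gene's strand, and capitals mark motif matches, read as the reverse complement where a match lies on the other strand.
Cox6a1: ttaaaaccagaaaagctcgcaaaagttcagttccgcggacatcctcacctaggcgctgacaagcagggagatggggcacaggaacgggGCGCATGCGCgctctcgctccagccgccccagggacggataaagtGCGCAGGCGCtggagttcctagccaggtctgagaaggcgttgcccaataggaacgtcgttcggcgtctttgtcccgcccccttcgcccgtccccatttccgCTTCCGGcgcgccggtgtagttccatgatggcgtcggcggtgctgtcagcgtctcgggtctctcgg
Cox8a: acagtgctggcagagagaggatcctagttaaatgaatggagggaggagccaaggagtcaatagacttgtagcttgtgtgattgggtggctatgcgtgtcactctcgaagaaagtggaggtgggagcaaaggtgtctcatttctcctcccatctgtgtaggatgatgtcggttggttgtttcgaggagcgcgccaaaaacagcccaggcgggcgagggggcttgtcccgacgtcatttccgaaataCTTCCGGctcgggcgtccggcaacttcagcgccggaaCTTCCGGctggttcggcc
Ndufs7: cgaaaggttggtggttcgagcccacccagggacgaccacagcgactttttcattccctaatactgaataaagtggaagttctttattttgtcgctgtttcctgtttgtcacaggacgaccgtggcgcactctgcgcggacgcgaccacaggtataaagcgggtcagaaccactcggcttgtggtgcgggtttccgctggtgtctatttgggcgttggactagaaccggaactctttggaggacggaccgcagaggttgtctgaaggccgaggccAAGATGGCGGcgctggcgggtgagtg
Sdha: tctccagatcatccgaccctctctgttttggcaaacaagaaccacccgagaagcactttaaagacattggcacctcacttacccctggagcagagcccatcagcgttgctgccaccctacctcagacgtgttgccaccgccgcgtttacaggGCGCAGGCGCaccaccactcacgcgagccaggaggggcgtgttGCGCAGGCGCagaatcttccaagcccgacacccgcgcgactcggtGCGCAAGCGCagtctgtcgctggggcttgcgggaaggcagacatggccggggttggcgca
The motifs searched on both strands were NRF1 (GCGC, any base, then TGCGC), ETS and GABP (CCGGAAG), YY1 (the capitals in Ndufs7), ERR (TCAAGGTCA) and the hypoxia response element (TACGTG); matches of different motifs overlapped 0 times. In Cox6a1 the capitals are 2 NRF1 matches and 1 ETS match nearer the start, in Cox8a 2 ETS matches, in Ndufs7 a YY1 match after the start and in Sdha 3 NRF1 matches. Shares are given for the 53 genes, for the 9995 tested genes with a window, both per gene, and for all 32851 promoter windows, per window. An NRF1 match was present in 11 of the 53 genes (20.8%), in 11.1% of these tested genes and in 4.60% of all promoter windows. An ETS match was in 11 (20.8%), 19.2% and 8.86%, and a YY1 match in 4 (7.50%), 2.29% and 0.850%. An ERR match was in 1 gene, Sdhd (1.90%, beside 0.280% and 0.420%), and a hypoxia response element in 1, Uqcr11 (1.90%, beside 4.45% and 3.23%). Some match was found in 23 of the 53 genes and in 32.6% of tested genes with a window. The windows of Ndufa12 and Ndufc1 held no match, which says only that these letters are not in the window. Cox4i1, which also rose over both cartilages, was not among the genes with a window. Neither was Ndufa4l2, so it was not searched for the hypoxia response element or any other motif. Genes with a match that did not pass in Bone over ImC were Ndufa5, Ndufa8, Ndufa11, Ndufs6 and Sdhd for NRF1. For ETS they were Ndufb7, Ndufs3, Ndufs8, Sdhd and Uqcr11. For YY1 they were Ndufa9, Ndufs4 and Ndufs6, which leaves Ndufs7 as the only gene with a YY1 match that rose. A link between matches and rises was not tested.

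Complex I has a nuclear core of 7 subunits that carry the electron path, surrounded by supernumerary subunits. In Bone over ImC, 2 of the 7 core genes rose, Ndufs7 and Ndufv2, and 15 of 29 supernumerary genes did (Ndufa4l2 is in neither class). By its name Ndufa4 is counted among the 29 and among the 15. At an unadjusted p under 0.05 the counts were 4 of 7 and 18 of 29. Of the 14249 genes tested, 6257 had such a p, in either direction. The log2 fold change was above 0 for 7 of 7 and 24 of 29, beside 48.8% of all genes. The difference between the classes was not tested. Ndufs7, whose iron-sulfur cluster hands electrons to ubiquinone, stood at 62.1, 70.8 and 70.5 CPM in Bone, 26.8, 34.4 and 26.1 CPM in MatC and 32.5, 35.7 and 45.8 CPM in ImC. It was higher in every Bone library than in any cartilage library, and rose over both tissues (log2 fold change 0.83 ± 0.26 over ImC, adjusted p = 0.0328; 1.21 ± 0.26 over MatC, adjusted p = 0.0255; SE). Ndufv2, an iron-sulfur subunit of the NADH-oxidizing arm, had 131, 190 and 177 CPM in Bone, 164, 81.3 and 132 CPM in MatC and 86.7, 84.9 and 75.8 CPM in ImC. Bone and ImC did not overlap for Ndufv2, and its log2 fold change was 1.01 ± 0.30 (adjusted p = 0.0286).

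The other core genes did not pass the test. Ndufs1, which holds several iron-sulfur clusters of the same arm, had 57.9, 73.1 and 62.5 CPM in Bone and 74.9, 56.0 and 47.0 CPM in ImC, overlapping groups with a log2 fold change of 0.12 ± 0.26 (adjusted p = 0.749). Ndufv1, the flavin subunit that binds NADH, gave 0.30 ± 0.35 (adjusted p = 0.536), and Ndufs3, a subunit of the arm that leads to ubiquinone, gave 0.33 ± 0.26 (adjusted p = 0.364). For Ndufs8, a ferredoxin-like subunit, all 3 Bone libraries lay above all 3 ImC libraries, with a log2 fold change of 0.88 ± 0.33 (adjusted p = 0.0679).

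Among the supernumerary genes, Ndufa1, a small membrane subunit needed to assemble complex I, rose furthest in Bone. It had 228, 224 and 227 CPM in Bone, 127, 98.0 and 49.2 CPM in MatC and 63.0, 80.8 and 15.2 CPM in ImC. The Bone libraries lay close together above all others, while ImC replicate 3 was far under the other ImC libraries; Bone over ImC was 2.09 ± 0.54 on the log2 scale (adjusted p = 0.0166). Ndufb11, a subunit of the membrane arm, rose by 1.79 ± 0.45 (log2, adjusted p = 0.0146), and has exon overlap with Rbm10 on the opposite strand. The others that rose in Bone over ImC were Ndufa3, Ndufa4, Ndufa6, Ndufa7, Ndufa12, Ndufa13, Ndufb4, Ndufb5, Ndufb6, Ndufb8, Ndufb9, Ndufc1 and Ndufs5. The 19 genes of complex I that did not pass ranged from -0.58 to 1.20 on the log2 scale, 14 of them above 0. At the low end, named for its position there, stood Ndufa10, a matrix-side subunit, with 94.8, 115 and 90.5 CPM in Bone and 114, 85.8 and 249.8 CPM in ImC, where the high value was ImC replicate 3 (adjusted p = 0.298).

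In Bone over ImC, Ndufa4 rose and its paralog Ndufa4l2 fell. Ndufa4 (chr6:11900292-11907497, minus strand, GRCm38), named for complex I and now placed in complex IV of mammals, had 240, 306 and 276 CPM in Bone, 243, 151 and 239 CPM in MatC and 116, 91.1 and 41.4 CPM in ImC. Both Bone and MatC lay wholly above ImC; the log2 fold change was 1.73 ± 0.38 in Bone over ImC (adjusted p = 0.00825) and 1.35 ± 0.38 in MatC over ImC (adjusted p = 0.0556). Ndufa4l2 (chr10:127514967-127517154, plus strand), a gene induced by hypoxia-inducible factor 1 in mouse and human cells and reported to lower complex I activity there, had 6.80, 10.3 and 8.12 CPM in Bone, 8.89, 11.4 and 10.3 CPM in MatC and 34.3, 96.1 and 46.1 CPM in ImC. It was the only tested subunit gene that fell in any comparison, with ImC wholly above the other tissues. Its log2 fold change was -2.81 ± 0.42 in Bone over ImC (adjusted p = 0.00148) and -2.53 ± 0.42 in MatC over ImC (adjusted p = 0.00907). Both calls held under each of the 19 alternative analyses. Per kilobase of transcript, Ndufa4l2 stood at 1.99% ± 0.185 of Ndufa4 in Bone, 3.37% ± 1.36 in MatC and 53.7% ± 29.8 in ImC (SD, n = 3 each). The opposite-strand gene Shmt2, a serine-metabolizing enzyme of mitochondria, shares exon sequence with Ndufa4l2 and also fell, with 23.6, 36.6 and 27.6 CPM in Bone and 80.3, 121 and 155 CPM in ImC (-2.02 ± 0.38, adjusted p = 0.00446). The highest library of Shmt2 was ImC replicate 3 and that of Ndufa4l2 was ImC replicate 2. Reads of the overlap cannot be told apart, as the library kit is not stranded. The part of Shmt2 reads in the level of Ndufa4l2 was not tested.

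**Figure D4:**
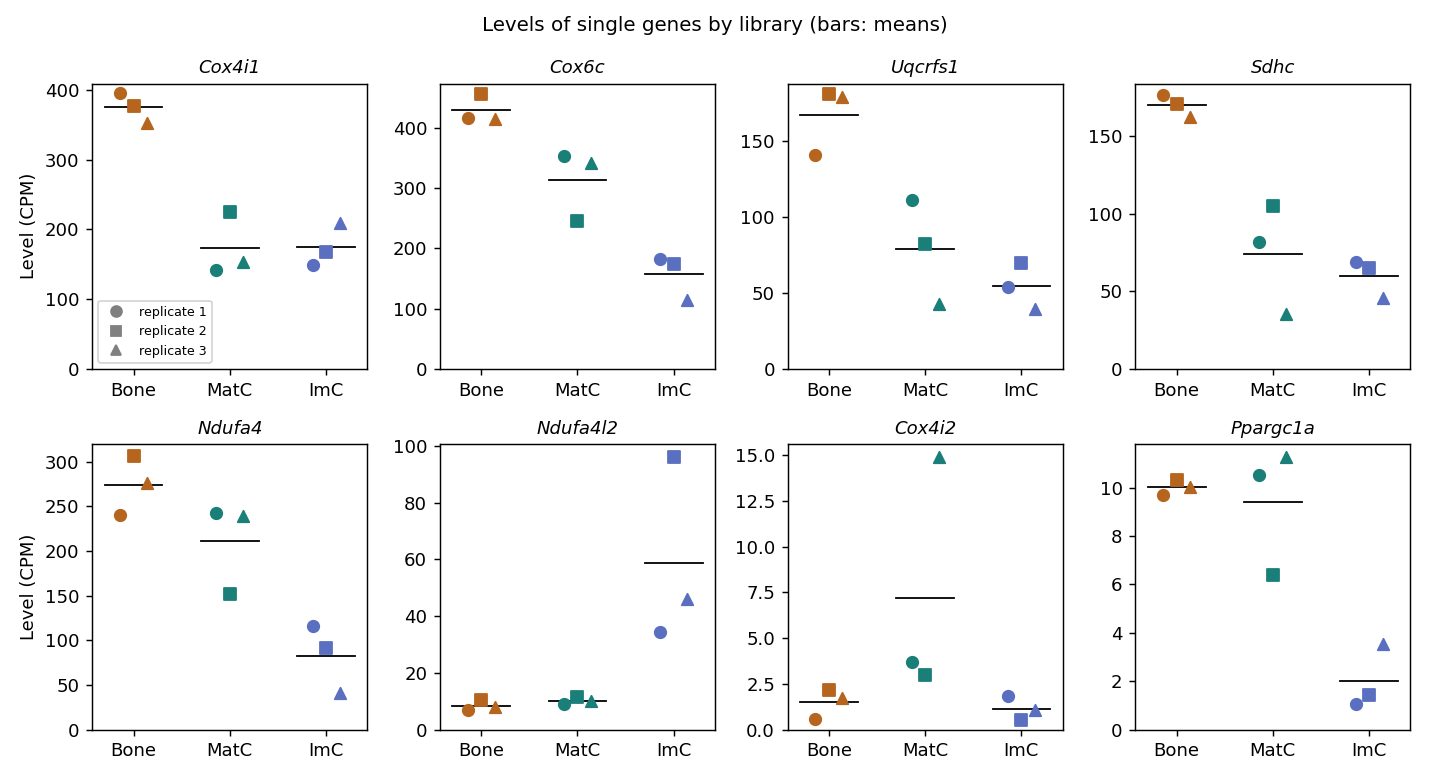
Levels in CPM of Cox4i1, Cox6c, Uqcrfs1, Sdhc, Ndufa4, Ndufa4l2, Cox4i2 and of Ppargc1a by library in Bone, MatC and ImC; the marker gives the replicate number and horizontal lines are means over 3 libraries. Ndufa4l2 is the panel in which ImC lies above both other tissues, and in the Cox4i2 panel MatC replicate 3 lies at 14.9 CPM, above all other libraries.

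Complex II joins the citric acid cycle to the chain, and 3 of its 4 genes rose in Bone over ImC. Sdhc, a membrane anchor, had 177, 171 and 163 CPM in Bone, 81.7, 105 and 35.4 CPM in MatC and 69.3, 64.9 and 45.6 CPM in ImC. Bone lay above every cartilage library, with a log2 fold change of 1.51 ± 0.37 over ImC (adjusted p = 0.0134). Sdhb, the iron-sulfur subunit, rose by 0.97 ± 0.26 (log2, adjusted p = 0.0177) and Sdha, the flavin subunit that oxidizes succinate, by 0.76 ± 0.25 (adjusted p = 0.0442). The Sdha call was lost in 10 of the 19 alternative analyses and the Sdhb call in 4. Sdhd, the other anchor, had 118, 167 and 124 CPM in Bone and 109, 95.7 and 13.2 CPM in ImC; ImC replicate 3 was far under the other ImC libraries and the difference did not pass (0.91 ± 0.59, adjusted p = 0.259). ImC replicate 3 lay more than 1 log2 unit below the mean of the other ImC libraries for 12 of the 63 genes, as it did for 21.2% of all genes, and above it for 4, as for 18.1% of all genes. Without it, 29 of the genes rose in Bone over ImC (46%), beside 12.8% of all genes.

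In complex III, 5 of the 8 genes chosen by symbol rose in Bone over ImC. Uqcrfs1, the Rieske iron-sulfur protein that passes electrons towards cytochrome c, had 141, 181 and 179 CPM in Bone, 111, 81.9 and 43.1 CPM in MatC and 54.1, 69.5 and 39.7 CPM in ImC. Bone did not overlap either cartilage, and the log2 fold change over ImC was 1.62 ± 0.36 (adjusted p = 0.00908). Uqcrb, a small matrix-side subunit, rose by 1.96 ± 0.48 (log2, adjusted p = 0.0128), Uqcrc1, a core protein, by 0.99 ± 0.27 (adjusted p = 0.0187), Uqcrc2, the other core protein, by 1.08 ± 0.29 (adjusted p = 0.0187), and Uqcrh, the hinge protein at cytochrome c1, by 1.02 ± 0.28 (adjusted p = 0.0214). Uqcr10, Uqcr11 and Uqcrq did not pass. Uqcr11, a small accessory subunit named for its small difference, had 142, 186 and 142 CPM in Bone and 153, 111 and 196 CPM in ImC, overlapping groups with a log2 fold change of 0.03 ± 0.34 (adjusted p = 0.951).

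In complex IV, 7 of the 14 tested genes rose in Bone over ImC: Cox4i1, Cox5a, Cox6a1, Cox6b1, Cox6c, Cox7b and Cox8a. Cox8a, the widely expressed form of the small subunit 8, with ETS matches in the window printed above, had 674, 669 and 635 CPM in Bone, 348, 295 and 195 CPM in MatC and 284, 311 and 208 CPM in ImC. The cartilages overlapped each other and Bone lay above both (1.30 ± 0.29 over ImC, adjusted p = 0.00917, on the log2 scale). Cox6a1, the non-muscle form of subunit 6a, had 504, 537 and 519 CPM in Bone, 215, 244 and 115 CPM in MatC and 206, 222 and 115 CPM in ImC. Its cartilages overlapped too, below Bone, with 1.52 ± 0.35 over ImC (adjusted p = 0.0102). Cox4i1, the widely expressed form of subunit 4, had 396, 376 and 352 CPM in Bone, 141, 225 and 153 CPM in MatC and 149, 168 and 209 CPM in ImC, a log2 fold change over ImC of 1.10 ± 0.27 (adjusted p = 0.0138); its exons overlap Emc8 on the opposite strand.

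Cox6c, a subunit whose level in MatC lay between the others and which is named for that, had 417, 457 and 415 CPM in Bone, 354, 245 and 341 CPM in MatC and 183, 175 and 114 CPM in ImC. The 3 tissues did not overlap. Bone over ImC was 1.45 ± 0.28 on the log2 scale (adjusted p = 0.00481), while MatC over ImC, at 0.996 ± 0.28, missed the threshold (adjusted p = 0.0559). Cox6b1, a subunit on the intermembrane side, rose in Bone over ImC by 1.45 ± 0.29 (log2, adjusted p = 0.00537), Cox5a, a matrix-side subunit, by 1.96 ± 0.51 (adjusted p = 0.0163) and Cox7b, a small membrane subunit, by 1.26 ± 0.40 (adjusted p = 0.0356). Cox7a2, the non-muscle form of subunit 7a, had 112, 167 and 129 CPM in Bone and 98.6, 93.6 and 65.6 CPM in ImC, groups that did not overlap but a difference that did not pass (0.66 ± 0.30, adjusted p = 0.119). Cox7a2l, which links complexes III and IV in supercomplexes, had 318, 306 and 297 CPM in Bone and 189, 282 and 130 CPM in ImC (0.62 ± 0.30, adjusted p = 0.143); C57BL/6 mice are known to carry a shortened form of its protein.

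The tissue-restricted isoforms of complex IV were low in all 3 tissues and none passed the test. Cox4i2, a form of subunit 4 known from lung and from oxygen-sensing cells, had 0.600, 2.19 and 1.72 CPM in Bone, 3.69, 3.01 and 14.9 CPM in MatC and 1.82, 0.539 and 1.05 CPM in ImC. MatC lay above both other tissues, most of all MatC replicate 3, where 14.9 CPM rests on 29 reads. The log2 fold change was 2.61 ± 0.86 in MatC over ImC (adjusted p = 0.0946) and -2.20 ± 0.84 in Bone over MatC (adjusted p = 0.152). Per kilobase Cox4i2 stood at 0.426% ± 0.236 of Cox4i1 in Bone, 4.75% ± 4.70 in MatC and 0.712% ± 0.499 in ImC (SD, n = 3 each). Among pericyte markers, which often accompany Cox4i2, Higd1b had 0.100 and 0.101 CPM in Bone replicates 1 and 3, 0.274 CPM in MatC replicate 1 and 0 in the rest, and the list of 13 summed to 131.3 to 201 CPM in Bone, 768.8 to 1132 in MatC and 1259 to 2059 in ImC, with 1 of 9 tested higher in MatC than ImC and 0 lower. Cspg4 made up most of the sum in cartilage, with 73.3, 67.5 and 68.6 CPM in Bone, 621, 701 and 1081 CPM in MatC and 1189, 1379 and 1990 CPM in ImC. The median log2 fold change of the 9 tested markers ran the other way from the sum, at 1.20 in MatC over ImC and 1.08 in Bone over ImC. The part of such cells in the level of Cox4i2 was not tested.

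Cox6a2, the muscle form of subunit 6a, had 0.400, 0.313 and 7.51 CPM in Bone, 0.958, 12.8 and 2.05 CPM in MatC and 0, 0.0898 and 2.49 CPM in ImC. Single libraries carried these values: Bone replicate 3, MatC replicate 2 and ImC replicate 3. The same libraries had the highest sum of 15 skeletal muscle markers in their group, with 185 CPM in Bone replicate 3, 565 CPM in MatC replicate 2 and 277 CPM in ImC replicate 3, against 63.9 and 68.4 CPM in the other Bone libraries, 62.8 and 174 CPM in the other MatC libraries and 69.0 and 85.0 CPM in the other ImC libraries. Heart and slow muscle markers, 10 in number, summed to 119.7 CPM in Bone replicate 3, 329 CPM in MatC replicate 2 and 103 CPM in ImC replicate 3. In MatC over ImC, 2 of 10 tested skeletal muscle markers and 2 of 7 heart and slow muscle markers were higher. The part of such cells in the result was not tested; among the markers, Myh2 and Myh4 had no read in Bone, and Ckm and Myh2 none in ImC. Cox6b2, the testis form of subunit 6b, had 4.60, 3.91 and 5.38 CPM in Bone, 6.29, 3.51 and 0.513 CPM in MatC and 9.42, 12.8 and 8.78 CPM in ImC. ImC lay above both other tissues without passing the test (-1.15 ± 0.62 in Bone over ImC, adjusted p = 0.177; -1.49 ± 0.63 in MatC over ImC, adjusted p = 0.177).

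Between Bone and MatC, 6 of the 63 genes rose in Bone (9.52%), against 1.48% of all genes tested, and none fell by edgeR's test, against 4.61% of all genes; DESeq2 likewise called 0 lower. At an unadjusted p under 0.05, 26 were higher and 1, Cox4i2, was lower. In either direction that is 27 of 63, where 3289 of 14249 genes tested had such a p. The 6 were Ndufa12, Ndufc1, Ndufs7, Cox4i1, Cox6a1 and Cox8a, each also higher in Bone than in ImC; the comparisons share the Bone libraries. The log2 fold change over MatC was 1.44 ± 0.35 for Cox6a1 (adjusted p = 0.0408), 1.24 ± 0.29 for Cox8a (adjusted p = 0.0366) and 1.11 ± 0.27 for Cox4i1 (adjusted p = 0.0412). Ndufa12, a supernumerary subunit at the junction of both arms of complex I, had 103, 101 and 98.1 CPM in Bone, 47.5, 52.6 and 34.3 CPM in MatC and 51.0, 55.6 and 53.3 CPM in ImC. The Bone libraries lay close together above both cartilages (1.16 ± 0.24 over MatC, adjusted p = 0.0236).

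Ndufc1, a small membrane subunit, had 194, 167 and 202 CPM in Bone, 88.1, 88.2 and 95.4 CPM in MatC and 79.3, 86.0 and 64.0 CPM in ImC, with 1.05 ± 0.23 over MatC (adjusted p = 0.0295). Its transcript has stretches at least 95% identical to transcripts of 7 other genes, so its counts are less certain. Over the 63 genes the median was 0.63 on the log2 scale, beside -0.03 over all genes tested (0.36 and -0.30 with library size as the only scaling), and all 3 Bone libraries lay above all 3 MatC libraries for 36 genes, where 18.3% of all genes did so. They lay below for 1, Cox4i2, where 17.7% of all genes did. The calls over MatC changed with single libraries, and so did the share of all genes called higher. Without Bone replicate 1, 2 or 3, 0 were made, beside 0.14%, 0.106% and 0.186% of all genes. Without MatC replicate 3, 0 were made (all genes 0.553%), and without MatC replicate 2, 3 were made (all genes 1.59%). Without ImC replicate 1, 2 were made (all genes 0.761%), and without ImC replicate 3, 16 were made (all genes 3.98%).

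Between MatC and ImC, no subunit gene rose by edgeR's test, against 5.32% of all genes tested, and 1 fell, Ndufa4l2, against 2.43%. At an unadjusted p under 0.05, 6 were higher and 2 lower. In either direction that is 8 of 63, where 3512 of 14249 genes tested had such a p. DESeq2 called 3 higher (4.76%), beside 9.6% of all genes. The median was 0.29 on the log2 scale, beside 0.0044 over all genes, and it rested in part on single libraries: it was 0.06 without MatC replicate 1 and 0.19 without ImC replicate 3. With limma voom it was 0.175, and with transcript GC content as an offset 0.15. All 3 MatC libraries lay above all 3 ImC libraries for 7 genes, where 11.3% of all genes did so, and below for 5, where 12.8% did. Besides Ndufa4 and Cox6c, the 7 included Uqcrb with 229.7, 104 and 117 CPM in MatC and 95.7, 77.4 and 25.7 CPM in ImC (1.18 ± 0.47, adjusted p = 0.151). The groups did not overlap, but MatC replicate 2 and ImC replicate 1 were close to each other.

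Ordered by group means, 40 of the 63 genes ran Bone, MatC, ImC from high to low (63.5%), where 26.8% of all genes did, and 13 ran Bone, ImC, MatC (20.6%, beside 10.6%). None ran MatC, ImC, Bone, where 11.7% of all genes did. Of the 40 genes, 3 passed the test between the neighbours Bone and MatC and 0 between MatC and ImC, while the libraries of the neighbours did not overlap for 24 and 6 genes. Of the 13 genes, 4 passed between Bone and ImC and 0 between ImC and MatC, without overlap for 10 and 1. The orders were set by these same means, which favours a lack of overlap in that direction. Shares over all genes of the same order were not taken, so these counts describe the members only. Among the libraries of a group the genes varied least in Bone, with a median SD of 0.203 on the log2 CPM scale, against 0.443 in MatC and 0.401 in ImC; all genes tested had the same order, with 0.218, 0.603 and 0.545. Across genes, which share the libraries and are not independent, the change in Bone over ImC had a Spearman correlation of -0.361 with transcript GC content over the 63 genes and -0.0889 over all genes tested with a transcript. It was -0.476 over the 63 genes and -0.117 over all genes in MatC over ImC, and 0.0167 and -0.0206 in Bone over MatC. Single libraries differed from the others of their group along GC content as strongly, with correlations over the 63 genes that ran from -0.504 in ImC replicate 1 to 0.498 in ImC replicate 3, and from -0.304 to 0.291 over all genes. With GC content as an offset, chosen after seeing the data, 34 genes rose in Bone over ImC (54%), beside 15.6% of all genes.

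Genes that work with the chain were counted in lists. Of 18 ATP synthase genes, 12 rose (66.7%) and 0 fell in Bone over ImC, where 14.3% of all genes rose and 17% fell, and the list summed to 6337 to 6897 CPM in Bone, 3903 to 4579 in MatC and 3169 to 3432 in ImC. Atp5h, a stalk subunit, rose by 1.55 ± 0.29 (log2, adjusted p = 0.00398). Of 17 citric acid cycle genes, 7 rose (41.2%), among them Mdh2, malate dehydrogenase (1.23 ± 0.25, adjusted p = 0.00617), and 0 fell. Of 36 assembly factors tested, 5 rose (13.9%), a share near that of all genes, and 0 fell; among the 5 was Ndufaf2, which helps to assemble complex I (1.74 ± 0.39, adjusted p = 0.00864). Of 20 membrane and import genes, 4 rose (20%) and 0 fell, led by Slc25a5, an ADP/ATP carrier, with 701, 710 and 694 CPM in Bone and 138, 151 and 34.3 CPM in ImC (2.70 ± 0.51, adjusted p = 0.00445). None of 16 genes of mitochondrial DNA expression passed in either direction. The median log2 fold change was 0.96 for ATP synthase, 0.86 for the citric acid cycle, 0.34 for assembly factors, 0.56 for membrane and import and -0.02 for mitochondrial DNA expression. In MatC over ImC, 0 genes of these lists passed.

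Among 12 genes of cytochrome c and coenzyme Q synthesis, 1 rose in Bone over ImC, Cycs, which encodes cytochrome c, and 1 fell, Coq2 of coenzyme Q synthesis (-0.77 ± 0.25, adjusted p = 0.0407); the median was 0.25. This list also holds Cyc1, cytochrome c1 of complex III, which the choice by symbol left out of the members. Cyc1 did not pass (0.51 ± 0.26, adjusted p = 0.157). Cycs had 142, 196 and 169 CPM in Bone, 143, 79.3 and 154 CPM in MatC and 59.5, 55.7 and 32.6 CPM in ImC. Both Bone and MatC lay above ImC, with log2 fold changes of 1.78 ± 0.34 (adjusted p = 0.00475) and 1.35 ± 0.34 (adjusted p = 0.0402). Among 12 tested regulators of respiratory genes, 2 rose (16.7%, near the share of all genes) and 1 fell in Bone over ImC, with a median of 0.13. Ppargc1a, a coactivator of mitochondrial genes, had 9.70, 10.3 and 10.04 CPM in Bone, 10.5, 6.40 and 11.3 CPM in MatC and 1.06, 1.44 and 3.54 CPM in ImC, and rose in both tissues (2.31 ± 0.54, adjusted p = 0.0104, for Bone; 2.21 ± 0.54, adjusted p = 0.0376, for MatC). Nfe2l2, a transcription factor of the antioxidant response, rose by 1.66 ± 0.46 (adjusted p = 0.0219) and Sirt3, a mitochondrial deacetylase, fell by 1.28 ± 0.40 (adjusted p = 0.0329).

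Of 19 hypoxia response genes, 1 rose (5.26%) and 6 fell (31.6%) in Bone over ImC, with a median of -0.88 on the log2 scale. Of all genes tested, 14.3% rose and 17% fell. In MatC over ImC 0 rose and 2 fell (10.5%), Car9 and Egln3, with a median of -0.33, where 2.43% of all genes fell. The summed levels overlapped, with 2498 to 3520 CPM in Bone, 2736 to 4540 in MatC and 2315 to 6807 in ImC. Car9, a carbonic anhydrase induced by hypoxia, had 0, 0.469 and 0.101 CPM in Bone, 0.137, 0.502 and 0 CPM in MatC and 24.0, 111 and 7.60 CPM in ImC, and fell in Bone over ImC (adjusted p = 0.00191) and in MatC over ImC (adjusted p = 0.0108). Car9 and Ndufa4l2 were both highest in ImC replicate 2, while the other ImC libraries ranked in opposite order for them. A link between these genes was not tested. Eno1, a glycolytic enzyme, and Lonp1, a mitochondrial protease, also fell in Bone (-1.48 ± 0.30, adjusted p = 0.00586; -1.43 ± 0.34, adjusted p = 0.0113). Over MatC, 0 genes of any of the 8 lists rose in Bone and 1 fell, Pdss2 of coenzyme Q synthesis (-1.77 ± 0.42, adjusted p = 0.0379).

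Relative to the nuclear genes, reads of the mitochondrially encoded subunits were fewest in Bone. Per read of the nuclear genes of complex I, the 7 mitochondrial genes had 4.65, 3.44 and 5.39 reads in Bone, 26.4, 125 and 299 reads in MatC and 56.7, 27.2 and 76.9 reads in ImC. For complex IV, with 3 mitochondrial genes, the values were 9.92 ± 1.69 in Bone, 449 ± 458 in MatC and 149 ± 120 in ImC (SD, n = 3 each). Bone lay below every cartilage library for both complexes, and the MatC libraries spread most. These are ratios of reads, not per length.

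Markers of other cells also differed between the tissues. The 10 osteoclast markers summed to 928.5 to 2041 CPM in Bone, 120.5 to 1142 in MatC and 12.21 to 16.5 in ImC, where Calcr and Dcstamp had no read; 9 rose in Bone over ImC. The 8 erythroid markers in the table summed to 11750 to 17010 CPM in Bone, 1584 to 6240 in MatC and 17.77 to 2622 in ImC, the high ImC value being replicate 3; 2 of 7 tested rose in Bone over ImC. The 12 endothelial markers summed to 118.8 to 354.9 CPM in Bone, 43.58 to 587.1 in MatC and 9.967 to 47.54 in ImC, with 9 higher in Bone than ImC. The 12 macrophage and leukocyte markers in the table summed to 109 to 261.3 CPM in Bone, 45.63 to 214.3 in MatC and 21.37 to 59.07 in ImC, with 9 of 11 tested higher in Bone than ImC and Emr1, C1qa and C1qb without a read in ImC. Brown fat markers, among them Cox7a1 and Cox8b, summed to at most 9.60 CPM in any library. The part of these cells in the rise of the subunit genes was not tested.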

How the data were processed

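RNA of 9 libraries was amplified for 1 round and sequenced after a TruSeq preparation that does not mark strand, per the labels' protocols. The deposited table of raw counts gives whole reads per gene symbol for 43472 rows. The submitters' processing notes list the genome mm10 and the tools edgeR, HTSeq, Bowtie2, TopHat2 and Trimmomatic 0.30, whose roles are not given in the sources used here. A second deposited table, of normalized values, was not used. Groups and replicate numbers come from the library titles.

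The 37 mitochondrially encoded rows were removed before library sizes were taken. The filterByExpr filter (minimum count 10) kept 14249 genes, and libraries were scaled by the trimmed mean of M values (TMM). All 9 libraries entered 1 fit of edgeR's quasi-likelihood test (edgeR 4.0.16, limma 3.58.1, R 4.3.3), with Benjamini-Hochberg adjustment over all genes tested and calls at an adjusted p under 0.05. SE values come from the log2 fold change and its F statistic. The procedure was tested on simulated data. DESeq2 1.42.0, limma voom, other scalings, filters and fits, and leaving out each library were tried as alternatives.

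The members, the gene lists (8 pathway and 11 cell type lists) and the genes named were chosen with earlier results of these data known. Named genes were, for each comparison and direction, the 5 called members that changed most, members called in at least 2 comparisons, isoform sets of complex IV and Ndufa4, the complex II genes, the complex I core, Uqcrfs1, Uqcrc1 and Uqcrc2, and up to 3 called genes per list; genes outside this, such as Ndufa10, Cox6c, Uqcr11, Uqcrh and Shmt2, were named after their values were seen. A single gene is not reported here.

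Replicates of a group differed by more than sampling noise (chi-square per degree of freedom of 13.1 to 179.8). Same-numbered libraries correlated at -0.138 to 0.261 in their deviations from group means, above 0.1 in 2 of 9 pairs, so the numbers were not taken as pairs. Coordinates, overlaps and near-identical stretches (BLAST 2.17.0, at least 95% identity over 100 bases) come from GENCODE M21 on GRCm38, the assembly mm10 denotes. Such a stretch in another gene was found for 26 members, and 20 share exon sequence with a gene on the opposite strand. These counts overlap: for some members, such as Cox4i1 with Emc8, the gene with the stretch is the overlapping gene itself. Amplified reads are not independent molecules, so few reads carry more error than counting gives.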

Additional observations from a re-analysis of the deposited data

How the results depend on the processing

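No member call and no median over the members changed sign under any of 19 alternatives. The medians over all genes, which lay near 0, did: they reached 0.02 in Bone over ImC with the replicate block, 0.05 in Bone over MatC with the length offset and -0.07 in MatC over ImC with the GC offset, on the log2 scale. Of the 32 rises in Bone over ImC, 19 were left with library size as the only scaling, which moved the median of all genes to -0.27 on the log2 scale (-0.30 in Bone over MatC); the members' median relative to all genes was 1.02 there, beside 1.04. That scaling changed the split of all calls, with 33.2% of them higher in Bone over ImC, beside 45.6% (42.7% to 51.4% without 1 library, 50.9% without both replicates 3), and 9.38% in Bone over MatC, beside 24.3%; for Bone over MatC the share was 36.6% with limma voom, 36.4% with the GC offset and 34.3% with DESeq2, and for MatC over ImC it was 78.9% with only the 2 groups compared, beside 68.7%. Leaving out 1 library gave 14 to 37 rises in Bone over ImC and 0 to 16 in Bone over MatC, where 6 were called. In Bone over MatC the rises were 18 with DESeq2, 22 with limma voom, 0 with library size only and 13 without replicates 3 of ImC and MatC. In MatC over ImC, where 0 rose, DESeq2 called 3, and no filter and the GC offset called 1 each. The genes lower in Bone over ImC were 2 with limma voom, with only the 2 groups compared and without both replicates 3. The GC and length offsets and the fit without both replicates 3 were chosen after seeing the data. With replicate number as a block, 31 genes rose in Bone over ImC and 4 in Bone over MatC; same-numbered libraries correlated above 0.1 in their deviations in 2 of 9 pairs (ImC with MatC, 0.246 for replicates 1 and 0.261 for replicates 3), and a library correlated best with its own number in 6 of 18 comparisons with another group, so the numbers were not taken as pairs.

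Counts over all genes moved too. Higher in Bone over ImC were 2033, with 3939 by limma voom and 1183 to 2462 without 1 library; lower were 2422, with 4143 and 1118 to 2906. Higher in Bone over MatC were 211, with 676 by DESeq2, 110 with library size only, 440 with no filter, 723 by limma voom, 398 with only the 2 groups, 333 with the GC offset, 582 without both replicates 3 and 16 to 588 without 1 library. Lower were 657, with 1293 by DESeq2, 1063 with library size only, 1083 with no filter, 1251 by limma voom, 1043 without both replicates 3 and 156 to 1159 without 1 library. Higher in MatC over ImC were 758, with 1368 by DESeq2, 1216 with no filter, 195 with only the 2 groups, 1346 without both replicates 3 and 255 to 927 without 1 library. Lower were 346, with 848 by DESeq2, 522 with no filter, 52 with only the 2 groups, 198 with the replicate block, 597 without both replicates 3 and 82 to 352 without 1 library.

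With 3 libraries a group and 1904092 non-mitochondrial counts in MatC replicate 3, differences of low isoforms such as Cox4i2 and Cox6a2 rest on few reads, and the mitochondrial share differs between Bone and cartilage in every library.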
